A study of Mus musculus with 65 samples.

Results

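Among 65 single cells from the embryonic mouse cortex, 16 carried transcripts of Neurod6, and these 16 are described here as 10 cells that also held Eomes transcripts and 6 that did not. The members were chosen by measured values: a cell needed at least 1000000 reads and 10 CPM (a gene's reads divided by all reads counted in that cell, times 1000000) of Neurod6, and Eomes at 10 CPM parted the groups. Every cell came from C57BL/6J embryos at E13.5, in mid-gestation, whose cortices, freed of the ganglionic eminences, were pooled. Cells that excluded propidium iodide, a stain of dead cells, were sorted singly, and cDNA was made with a SMARTer full-length kit that keeps neither strand nor molecule counts. No genotype, treatment or time differs between the groups, which come from the measurements alone. The study's question was how transcription varies among cortical progenitors, and its labels call every cell a neural progenitor.

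In the dorsal cortex, apical progenitors that line the ventricle make intermediate progenitors, which carry the T-box factor Eomes (also called Tbr2) and divide away from the ventricle to give excitatory neurons. Eomes declines as the daughters migrate and mature, while Neurod6, a basic helix-loop-helix factor of the NeuroD family, is known mainly from postmitotic excitatory neurons. A cell with both transcripts is therefore usually read as close to the step between the progenitor and the neuron, and one with Neurod6 alone as further along. That reading is background, and no lineage or birth date was measured in these cells.

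Because the embryos were pooled without a record of which animal gave which cell, each group counts as 1 sample. No test between the groups is possible, and spreads are those between cells. Genes are called by size only. A gene was examined when the mean CPM values of both groups averaged 10 or more, and was called past the fold when the means of log2(CPM + 1) differed by 2 or more, a 4-fold difference on that scale. Eomes and Neurod6 were left out of these counts. A difference is always Eomes-positive minus Eomes-negative, and a positive value means higher in the Eomes-positive cells. Since the groups were selected on measured values of the same cells, every difference below is a description.

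Eomes in the 10 positive cells ran from 113 through a median of 374 to 1754 CPM, and in the 6 negative cells from 0 through 0.195 to 1.66 CPM. The threshold fell in a wide gap, with NPC1_S2 at 113 CPM just above it and NPC1_S12 at 1.66 CPM just below, named as in the sample titles. Neurod6 ran from 61.8 through 2095 to 13258 CPM in the Eomes-positive cells and from 279 through 1295 to 3099 CPM in the Eomes-negative cells. Its lowest member, NPC2_S13 at 61.8 CPM, stood against 1.15 CPM in NPC3_S34, the highest cell outside. Eomes thresholds of 5 or 50 CPM and a Neurod6 threshold of 50 CPM chose the same 16 cells. Neurod6 itself overlapped broadly between the groups, so that its level does not part them.

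**Figure D1:**
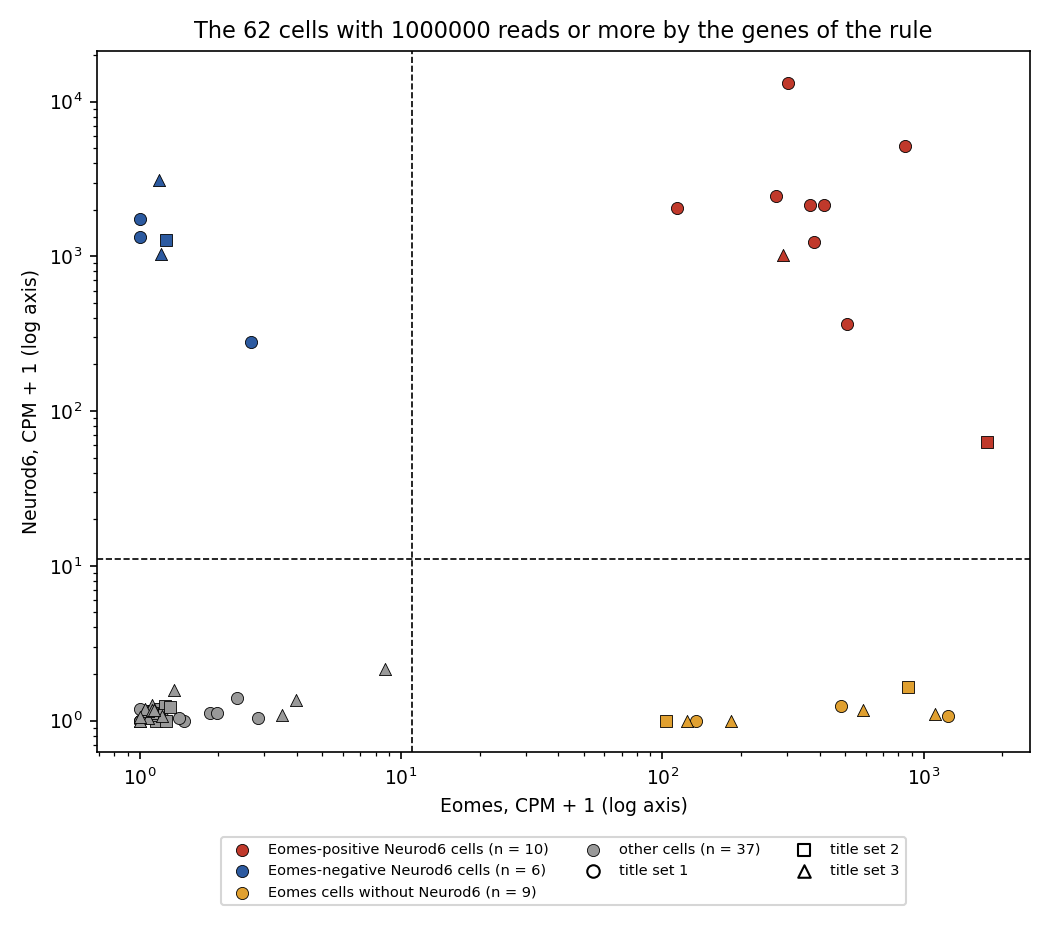
Eomes (x axis) against Neurod6 (y axis), both as CPM + 1 on log axes, in the 62 cells with 1000000 reads or more; each point is a cell, colours mark groups, shapes mark the title sets and dashed lines mark the thresholds of 10 CPM. No member lies near either threshold, and NPC2_S13 has the highest Eomes and the lowest Neurod6 of the 16 members.

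Depth overlapped between the groups. Reads ran from 1390849 to 20294501 in the Eomes-positive cells (median 12948174) and from 4792811 to 24620457 in the Eomes-negative cells (median 13317944). The genes at 10 CPM or more had medians of 3112 and 2809 per cell. The titles part the series into 3 numbered sets that the labels do not explain, and the groups are spread over them unevenly: 8, 1 and 1 Eomes-positive cells and 3, 1 and 2 Eomes-negative cells lie in sets 1, 2 and 3. Results within set 1 are given beside the main ones. Some transcripts are missed in any single cell: the housekeeping gene Tbp was at 10 CPM or more in 2 of the 10 and 3 of the 6 cells, and Hprt in 3 and 4, so that a value of 0 in a cell cannot be told apart from a transcript that was lost. Tubulin, globin, ribosomal protein and HMG genes have near-identical copies, so that their reads are uncertain.

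Most members carried neuronal transcripts. Tubb3, a neuronal tubulin, was at 10 CPM or more in 10 of 10 and 6 of 6 cells, the dendritic protein gene Map2 likewise, and Dcx, a microtubule protein of migrating neurons, in 9 of 10 and 6 of 6. Among apical progenitor markers, Sox2 reached 10 CPM in 0 of 10 and 0 of 6 cells, Pax6 in 2 of 10 and 1 of 6, and Hes1 in 0 of 10 and 1 of 6. The filament genes Vim and Nes, which are also counted among these markers, reached it in 10 of 10 and 5 of 6 and in 4 of 10 and 2 of 6 cells. The interneuron markers Dlx1, Dlx2, Dlx5 and Gad2 reached 10 CPM in no member, and no microglial or mural marker did in any Eomes-positive cell. The apical markers thus went in different directions against the label of neural progenitor, with Sox2 below 10 CPM in all 16 cells and Vim above it in 15.

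3 members stood apart from the others. NPC1_S26, an Eomes-positive cell, had Top2a at 2345 and Mki67 at 1063 CPM, both genes of dividing cells, Pax6 at 344 CPM, Dcx at 1.43 CPM and Stmn2 at 0.214 CPM. NPC1_S33, also Eomes-positive, had Top2a at 1163 and Mki67 at 269 CPM beside Dcx at 756 CPM. These 2 cells held 37 and 24 genes of the G2/M list at 10 CPM or more, while the other 8 Eomes-positive cells held 3 to 11. NPC1_S39, an Eomes-negative cell, had Reln at 7134 CPM, the secreted protein of Cajal-Retzius neurons, with Trp73 at 21.7 CPM and Ebf2 at 1435 CPM. Ebf2, although in the Cajal-Retzius list, was otherwise a gene of the Eomes-positive cells, at 10 CPM or more in 7 of 10 (up to 1071 CPM) and 1 of 6, with a difference of 3.69. NPC1_S39 is the only member with Trp73 at 10 CPM or more. Calb2, also in the Cajal-Retzius list, had no read in NPC1_S39. It was at 215 CPM in NPC1_S17 and 14.7 CPM in NPC3_S26, which were not set apart. NPC1_S27 had few genes (1350 at 10 CPM or more) and the highest Neurod6, and NPC2_S13 was the shallowest cell. The groups are therefore called by their genes and not newly born and later neurons, and the counts are repeated without NPC1_S26, NPC1_S33 and NPC1_S39.

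Of 6987 examined genes, 697 (9.98%) were past the fold and higher in the Eomes-positive cells and 768 (11%) were past it and higher in the Eomes-negative cells, with a median difference of -0.01. These percentages are the background for every list below. A gene whose 10 Eomes-positive cells all lay above the 6 Eomes-negative cells was not found (0%), and 2 genes (0.0286%) had all 6 Eomes-negative cells above all 10 Eomes-positive cells, among them Ctxn1. Without the 3 cells that stood apart, 689 and 1018 of 6739 genes were past the fold, and within set 1 alone 1451 and 1060 of 6337. There the median of all genes moved to -0.25 and 0.62, so that list medians under those settings are read against these shifts. Lists and genes were picked with earlier results of these data known.

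Promoters were compared because Neurog, NeuroD and Nhlh factors, which bind E-boxes, are among the genes that differed. The letters CAGATG, an E-box of the kind bound by neurogenin and NeuroD proteins, or CATCTG on the other strand, occurred in the 250 bases before the start of 10.7% of the RefSeq promoters (GRCm38.p6) of genes higher in the Eomes-positive cells and of 8.93% of those of genes higher in the Eomes-negative cells. The share was 9.46% over all examined genes and 14.4% over 32851 promoters of the genome, so that these letters do not part the groups. Nhlh1 and Neurod2 are shown because each is a neurogenic factor past the fold, one in each direction, and each holds the E-box once. Both lie on the minus strand, at chr1:172057597-172057846 and chr11:98329646-98329895, and are printed 5′ to 3′ along the gene, with the E-box in capitals, 203 and 118 bases before the start.
Nhlh1: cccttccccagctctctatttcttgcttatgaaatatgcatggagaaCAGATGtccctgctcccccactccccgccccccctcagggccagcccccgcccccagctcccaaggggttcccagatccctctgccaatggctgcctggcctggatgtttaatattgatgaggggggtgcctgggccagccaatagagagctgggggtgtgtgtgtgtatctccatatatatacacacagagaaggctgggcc
Neurod2: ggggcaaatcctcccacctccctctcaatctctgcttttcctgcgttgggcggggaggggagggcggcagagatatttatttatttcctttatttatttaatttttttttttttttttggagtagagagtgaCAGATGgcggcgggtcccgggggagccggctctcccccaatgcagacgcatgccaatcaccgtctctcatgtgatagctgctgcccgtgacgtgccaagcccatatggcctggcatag
A match is a string of letters and does not show that a factor binds there.

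Neurogenic genes were higher in the Eomes-positive cells. In the list of genes of intermediate progenitors, 6 of 15 examined genes were past the fold and higher there, 1 was past it and higher in the Eomes-negative cells, and 14 of 15 differences were above 0. The median difference was 1.75, against -0.01 for all genes. Without the 3 cells that stood apart the counts were 6 and 1 of 14 and the median 1.87, and within set 1 they were 8 and 1 of 15 and the median 2.08. The gene that went the other way was Cbfa2t3, a co-repressor, at -2.19, which is named outside the rule to complete the count.

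Neurog2, the proneural factor that starts neurogenesis in the dorsal cortex, ran from 0 through 35.3 to 324 CPM in the Eomes-positive cells and from 0 through 0 to 0.162 CPM in the Eomes-negative cells. It reached 10 CPM in 6 of 10 positive cells (60%, exact Clopper-Pearson 95% interval 26.2 to 87.8%) and in 0 of 6 negative cells (interval 0 to 45.9%). These intervals cover counting error only. The difference of means was 4.26 (SD between cells 3.18 and 0.09). NPC1_S33 and NPC3_S38 were highest, at 324 and 285 CPM, while NPC1_S5 and NPC1_S27 had no read, so that the groups overlapped at the bottom.

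Nhlh1, a helix-loop-helix factor of newly formed neurons, was spread over more of the cells. It ran from 6.13 through 237 to 757 CPM in the Eomes-positive cells, of which 9 reached 10 CPM, and from 0 through 5.16 to 332 CPM in the Eomes-negative cells, of which 2 did. Its difference was 4.04, and 1.44 within set 1, where NPC1_S12 at 332 CPM was the highest Eomes-negative cell. Nhlh1 thus no longer passed the fold in that set.

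Rcor2, a partner of REST and of the histone demethylase Kdm1a, had a difference of 3.06 and reached 10 CPM in 7 of 10 and 1 of 6 cells. Hes6, an inhibitor of Hes1 that favours differentiation, and Btg2, an antiproliferative factor of neurogenic divisions, were sparser. Hes6 was at 340, 340 and 568 CPM in NPC1_S13, NPC1_S26 and NPC1_S2 and below 10 CPM in every other member. Btg2 was at 143, 263 and 134 CPM in NPC1_S26, NPC1_S5 and NPC1_S2 and below 10 CPM elsewhere. Only NPC1_S26 and NPC1_S2 held both, so that the differences of 3.0 and 2.34 came from 3 cells each. For Btg2 the difference fell below 2 when any of these 3 cells was left out.

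Insm1, a zinc-finger factor of delaminating progenitors, had a difference of 1.75, short of the fold, with 4 of 10 and 1 of 6 cells at 10 CPM or more. Neurod1, which follows Neurog2, did not reach the fold either: it ran from 0.256 through 589 to 1372 CPM in the Eomes-positive cells and from 0 through 436 to 1507 CPM in the Eomes-negative cells. The highest cell for Neurod1 was Eomes-negative (NPC1_S12), and its groups overlapped over the whole range. It was at 10 CPM or more in 9 of 10 and 4 of 6 cells.

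Notch genes were thinly measured. Only 9 of the 20 measured genes of the pathway list had enough reads to be examined. Of these, 2 were past the fold and higher in the Eomes-positive cells (Hes6 and Dll1). In the other direction 1 was past it, higher in the Eomes-negative cells (Rfng). The counts were 1 and 1 of 10 without the 3 cells that stood apart. Dll1, the ligand that neurogenic cells present to their neighbours, reached 10 CPM in 4 of 10 cells with a maximum of 404 CPM in NPC1_S28, and in 0 of 6 Eomes-negative cells. Its difference of 2.02 passed the fold narrowly and fell short of it when any of several single cells was left out. Rfng, a glycosyltransferase that modifies Notch, reached 10 CPM in 1 of 10 and 2 of 6 cells, at a difference of -2.23 that was -1.32 without NPC2_S17 and -1.22 without NPC1_S17, short of the fold. Mfng, another enzyme of that family, reached 10 CPM in 6 of 10 and 2 of 6 cells but had a difference of only 1.87.

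Of 9 examined genes of cell cycle exit, 2 were past the fold and higher in the Eomes-positive cells, Btg2 and Cdkn1b, and 0 in the other direction. The share was 22.2%, against 9.98% of all genes, and the list median 0.42. The counts were 1 and 1 of 9 without the 3 cells that stood apart, with a median of 0.24 where all genes had -0.25. Within set 1 they were 4 and 0 of 9, with a median of 1.20 where all genes had 0.62. Cdkn1b, the cyclin-dependent kinase inhibitor p27, was at 10 CPM or more in 10 of 10 and 5 of 6 cells and ran from 15.8 through 95 to 437 CPM and from 0 through 42.9 to 101 CPM. The difference of 2.16 was 1.25 without NPC1_S12, an Eomes-negative cell with no read, and 1.93 without NPC2_S13 or NPC1_S2, short of the fold each time. The inhibitor Cdkn1c, at 1.16, did not pass the fold.

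**Figure D2:**
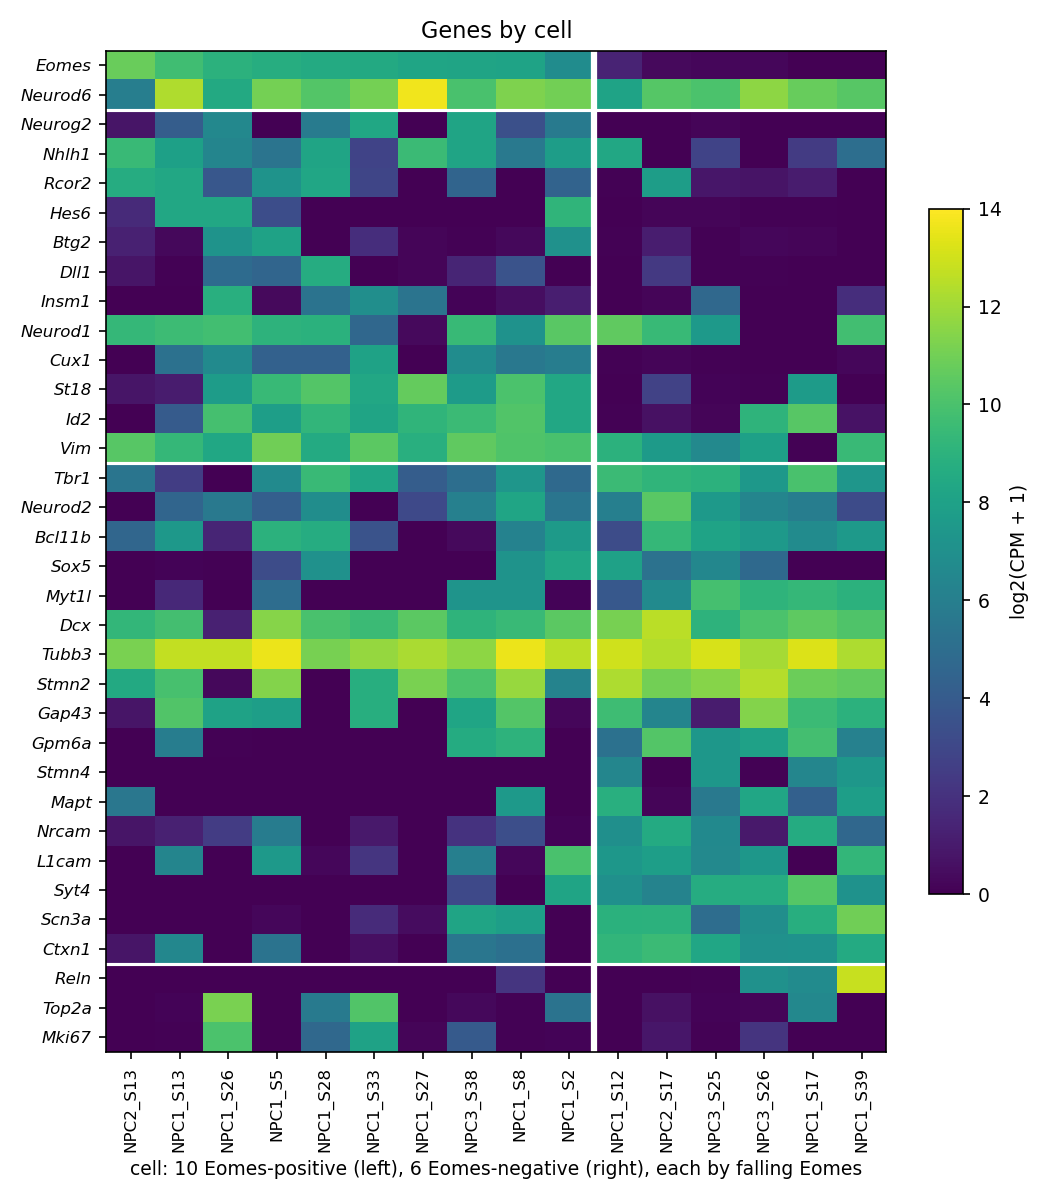
Level of the genes named (rows) in the 16 cells (columns, Eomes-positive left of the white bar, Eomes-negative right), as log2(CPM + 1) on the colour scale; white lines part the genes of the rule, neurogenic and early genes, neuronal genes, and the 3 genes Reln, Top2a and Mki67. Ctxn1 is lit in all 6 Eomes-negative cells, and Top2a and Mki67 are brightest in NPC1_S26 and NPC1_S33.

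Transcription factors of excitatory neurons passed the fold in both directions. Among 31 examined genes, 4 were past the fold and higher in the Eomes-positive cells (St18, Cux1, Id2 and Foxp2, the last named outside the rule) and 6 were past it and higher in the Eomes-negative cells, with a median of -0.51. The shares were 12.9% and 19.4%, against 9.98% and 11% of all genes. Without the 3 cells the counts were 5 and 6 of 29, with a median of -0.68 where all genes had -0.25. Within set 1 they were 8 and 7 of 30, or 26.7% and 23.3%, against 22.9% and 16.7% of all genes there.

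Tbr1, the T-box factor of early-born deep-layer neurons that follows Eomes in the lineage, ran from 0 through 36.8 to 720 CPM in the Eomes-positive cells and from 164 through 544 to 1013 CPM in the Eomes-negative cells. Every Eomes-negative cell had it, and so did 8 of 10 Eomes-positive cells at 10 CPM or more. The difference was -3.38 (SD 2.78 and 1.10), and -3.56 within set 1. NPC1_S28 at 720 CPM and NPC1_S33 at 295 CPM overlapped the Eomes-negative range, and the other 8 Eomes-positive cells lay below its lowest cell, NPC1_S8 at 163 CPM just under it.

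Myt1l, a zinc-finger factor that holds neurons in their neuronal state, ran from 0 through 0.0431 to 154 CPM in the Eomes-positive cells and from 13.4 through 533 to 932 CPM in the Eomes-negative cells. It reached 10 CPM in 3 of 10 cells (30%, interval 6.67 to 65.2%) and 6 of 6 cells (100%, interval 54.1 to 100%), at a difference of -5.85. NPC1_S8 and NPC3_S38, at 154 and 153 CPM, were the highest Eomes-positive cells, above NPC1_S12 and NPC2_S17. Pooled over cells, Myt1l made up 50.5 CPM in the Eomes-positive group (Poisson 95% interval 49.3 to 51.8) and 546 in the Eomes-negative group (541 to 551), again with counting error only.

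Nfix, a nuclear factor I gene, had a difference of -4.09 and reached 10 CPM in 2 of 10 and 4 of 6 cells. Bcl11b and Neurod2, factors of subcerebral and of maturing neurons, had differences of -2.20 and -2.18 but -0.37 and -0.30 within set 1, so that neither passed the fold there, nor in all cells when any of several single cells was left out. The layer factors Sox5 (-1.48) and Fezf2 (-1.26) did not pass it in all cells. Fezf2, known for subcerebral projection neurons, was at 10 CPM or more in 2 of 10 and 3 of 6 cells.

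St18, a zinc-finger gene of the same family as Myt1l, went the opposite way. It ran from 0.719 through 339 to 1639 CPM in the Eomes-positive cells, with 8 of 10 at 10 CPM or more, and from 0 through 0.0641 to 205 CPM in the Eomes-negative cells, with 1 of 6. The difference was 5.68, and 5.70 within set 1. NPC1_S17 at 205 CPM was the only Eomes-negative cell at 10 CPM or more, and NPC2_S13 and NPC1_S13 were the Eomes-positive cells below that level. So the family's genes St18 and Myt1l showed differences of opposite sign in the same 16 cells.

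Cux1, a homeobox gene known from upper-layer neurons and their progenitors, ran from 0 through 41.6 to 263 CPM in the Eomes-positive cells and did not exceed 0.209 CPM in any Eomes-negative cell. It reached 10 CPM in 8 of 10 cells (80%, interval 44.4 to 97.5%) and 0 of 6 (interval 0 to 45.9%), at a difference of 4.60. The Eomes-positive cells NPC2_S13 and NPC1_S27, with no read of it, kept the groups from parting. Id2, an inhibitor of helix-loop-helix factors, had a difference of 4.13 and was at 10 CPM or more in 9 of 10 cells, but also at 551 and 1310 CPM in the Eomes-negative cells NPC3_S26 and NPC1_S17.

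Genes of the neuronal cytoskeleton were mostly lower in the Eomes-positive cells. Of 30 examined genes, 11 were past the fold and higher in the Eomes-negative cells, 1 was past it in the other direction, and 26 of 30 differences were below 0, with a median of -1.22. Without the 3 cells that stood apart the counts were 13 and 1 of 30 and the median -1.33, and within set 1 they were 10 and 1 of 30 and the median -1.14.

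Stmn2, a tubulin-binding protein of growth cones, ran from 0 through 707 to 3683 CPM in the Eomes-positive cells and from 1564 through 2451 to 5499 CPM in the Eomes-negative cells, at a difference of -3.62. NPC1_S8, NPC1_S5 and NPC1_S27, at 3683, 2685 and 2281 CPM, lay within the Eomes-negative range, while NPC1_S28 had no read. Stmn4, of the same family, had no read in any of the 10 Eomes-positive cells (0 of 10, which allows a share of up to 30.8% at 10 CPM or more) and was at 10 CPM or more in 4 of 6 Eomes-negative cells, with a maximum of 172 CPM.

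Gpm6a, a membrane glycoprotein of growth cones and filopodia, ran from 0 through 0 to 529 CPM in the Eomes-positive cells and from 36.8 through 212 to 1222 CPM in the Eomes-negative cells, at a difference of -5.44. NPC1_S8 at 529, NPC3_S38 at 391 and NPC1_S13 at 59.9 CPM were the Eomes-positive cells that held it. Mapt, the microtubule protein tau, had a difference of -4.54 and reached 10 CPM in 2 of 10 and 5 of 6 cells. Tubb2a was at -4.58, and the growth-cone protein Gap43 at -2.39, the latter below the fold when any of several single cells was left out.

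Among general neuronal genes, Tubb3 and Dcx differed less than Stmn2 did. Tubb3 ran from 2198 through 5378 to 12534 CPM and from 4452 through 6734 to 9732 CPM, with a difference of -0.38 and SDs of 0.89 and 0.50. Dcx had a difference of -1.49, under the fold, and the lowest cell was NPC1_S26 at 1.43 CPM. Dpysl4, a member of the collapsin response mediator family, was the 1 cytoskeletal gene past the fold in the other direction. It reached 10 CPM in 5 of 10 and 0 of 6 cells, with a maximum of 1244 CPM and a difference of 4.61.

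Among genes of axon guidance and adhesion, 10 of 24 examined genes were past the fold and higher in the Eomes-negative cells and 0 in the other direction, with 20 of 24 differences below 0 and a median of -1.50. Without the 3 cells that stood apart the counts were 9 and 1 of 23, and within set 1 they were 13 and 2 of 24 with a median of -2.22. The other direction in set 1 stood beside a share of 22.9% over all genes examined there.

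Nrcam, an adhesion molecule of axons, ran from 0 through 1.20 to 58.5 CPM in the Eomes-positive cells and from 0.939 through 111 to 384 CPM in the Eomes-negative cells, at a difference of -4.37. The 1 Eomes-positive cell at 10 CPM or more was NPC1_S5. Cntn2, the early axonal protein TAG-1, had a difference of -3.88, with 5 of 10 and 5 of 6 cells at 10 CPM or more, so that the levels differed more than the share of cells. L1cam, also an axonal adhesion molecule, was at -3.16, although its highest cell, NPC1_S2 at 1026 CPM, was Eomes-positive.

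Efnb2, a ligand of Eph receptors, was common to both groups. It ran from 2.81 through 212 to 735 CPM and from 330 through 836 to 2043 CPM and reached 10 CPM in 9 of 10 and 6 of 6 cells, at a difference of -3.02. Sema6d, a transmembrane semaphorin, had a difference of -4.08, with 1 of 10 and 3 of 6 cells at 10 CPM or more, and one of -2.19 within set 1.

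In the list of synaptic and channel genes, 7 of 24 examined genes were past the fold and higher in the Eomes-negative cells and 0 in the other direction, with 20 of 24 differences below 0 and a median of -1.43. Without the 3 cells that stood apart the counts were 7 and 1 of 23, and within set 1 they were 9 and 1 of 20. The median was only -0.10 when group medians replaced group means, since many of these genes had a median of 0 in both groups.

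Syt4, a synaptotagmin of vesicles, was at 75.2 through 272 to 1254 CPM in the Eomes-negative cells and had no read in 8 of the 10 Eomes-positive cells, at a difference of -6.89. NPC1_S2, the cell with the least Eomes of its group, was the exception at 283 CPM. Scn3a, a sodium channel of embryonic brain, ran from 30.6 through 467 to 1983 CPM in the Eomes-negative cells and reached 10 CPM in 2 of 10 Eomes-positive cells, NPC3_S38 and NPC1_S8, at 287 and 230 CPM. Cnr1, the cannabinoid receptor, was more widely shared, with 7 of 10 and 6 of 6 cells at 10 CPM or more and a difference of -3.97. It ran from 0 through 800 to 3775 CPM in the Eomes-positive cells and from 856 through 1640 to 3166 CPM in the Eomes-negative cells. Its highest cell, NPC1_S5, was Eomes-positive.

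**Figure D3:**
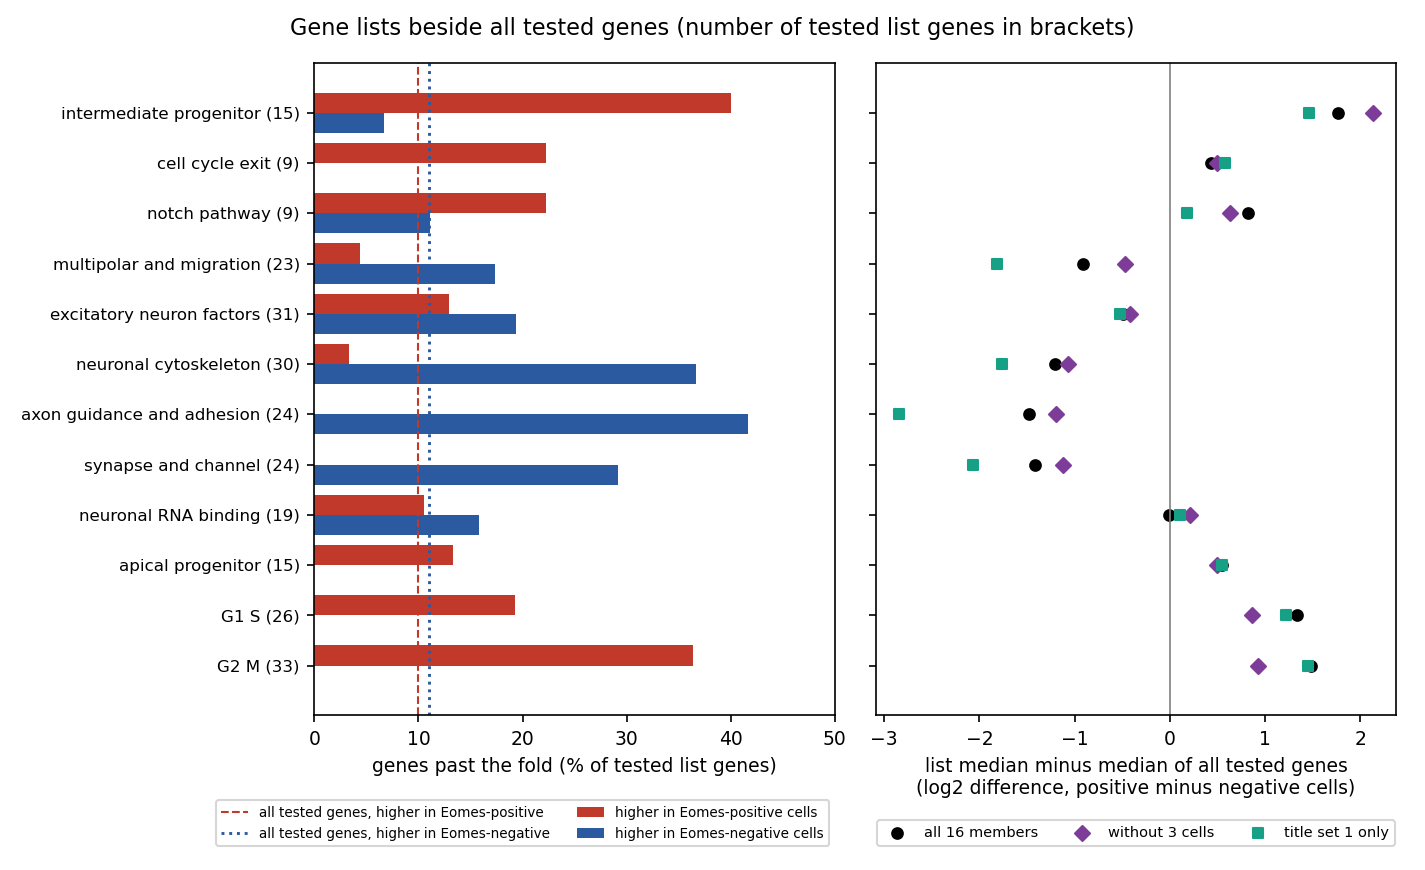
Left, the share of each list's examined genes past the fold in each direction (bars from 0) beside the shares over all 6987 examined genes (lines at 9.98% and 11%); right, the median difference of each list minus that of all examined genes, in log2 units, for all members, without NPC1_S26, NPC1_S33 and NPC1_S39, and within set 1. The cytoskeletal, axonal and synaptic lists lie left of 0 and the intermediate progenitor and cell cycle lists right of it under all 3 settings.

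Genes of migration passed the fold in both directions. Of 23 examined genes, 4 were past the fold and higher in the Eomes-negative cells and 1 in the other direction, with a median of -0.93. The 4 were 17.4%, against 11% of all genes. Within set 1 the counts were 8 and 3 of 21, with a median of -1.19 where all genes had 0.62. The 8 were 38.1%, against 16.7% of all genes there. Without the 3 cells that stood apart the counts were 3 and 1 of 20, with a median of -0.73 where all genes had -0.25. The 3 genes were 15%, against 15.1% of all genes there. In all cells, the genes past the fold were as follows. The kinase Cdk5 (-3.16), which neurons need to migrate, its activator gene Cdk5r1 (-2.02), the adhesion gene Flrt2 (-3.87) and the semaphorin receptor gene Plxna4 (-3.51) were the 4, and the semaphorin receptor gene Nrp1 (2.04) was the 1. Nrp1 fell short of the fold when any of 9 single cells was left out, down to 1.37 without NPC1_S2, and Cdk5r1 when any of 6 was. The difference of Cdk5r1 was 0.19 when group medians were used, and it thus reversed. Flrt2 reached 10 CPM in 3 of 6 Eomes-negative cells and 1 of 10 Eomes-positive cells. Rnd2, a small GTPase that Neurog2 is known to activate in migrating neurons, had a difference of 0.96, short of the fold, and Unc5d, a receptor of multipolar cells, one of 0.03.

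RNA-binding genes showed neither direction, with 2 and 3 of 19 examined genes past the fold and a median of -0.02. The counts were 2 and 3 of 18 without the 3 cells that stood apart. Celf1 (2.37) and Rbfox2 (2.32), both regulators of splicing, were higher in the Eomes-positive cells, and Celf4 (-2.40), Celf5 (-2.75) and Mbnl2 (-2.38) in the Eomes-negative cells. Each of these genes but Celf5 fell short of the fold when some single cell was left out. Celf1 and the related Celf4 and Celf5 thus had opposite signs in the same cells.

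Apical progenitor genes differed little as a list, with 2 and 0 of 15 examined genes past the fold and a median of 0.53. The counts were 2 and 1 of 12 without the 3 cells that stood apart. Vim, the intermediate filament of radial glia and of young neurons, was in every Eomes-positive cell, from 328 through 1070 to 1989 CPM, and ran from 0.0784 through 224 to 716 CPM in the Eomes-negative cells, at a difference of 2.97. The lowest cell, NPC1_S17, carried much of that value, which was 1.63 without it and then short of the fold. Hmga2, a chromatin protein of young progenitors, had a difference of 2.40, with 6 of 10 and 3 of 6 cells at 10 CPM or more, and fell short of the fold without NPC1_S12 (1.79), NPC2_S17 (1.81) or NPC1_S39 (1.77).

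Cell cycle genes were higher in the Eomes-positive cells but rested on few of them. In the G2/M list 12 of 33 examined genes were past the fold and higher there and 0 in the other direction, with a median of 1.47, and in the G1/S list 5 and 0 of 26 (Mcm6, Cdca7, Casp8ap2 and, outside the rule, Mcm2 and Pold3), with a median of 1.32. Cdca7 was short of the fold without NPC1_S26 (1.95) or NPC1_S33 (1.88), and Mki67 (2.23) likewise without NPC1_S26 or NPC1_S33. Casp8ap2 was short of it without NPC1_S13 (1.51), NPC1_S33 (1.80) or NPC1_S5 (1.85). Without NPC1_S26 and NPC1_S33 fewer genes of both lists had enough reads to be examined, 18 and 19, and the counts were 4 and 0 for G2/M and 2 and 1 for G1/S, with medians of 0.82 and 0.20. With NPC1_S39 left out as well, the counts were 4 and 2 of 18 for G2/M and 2 and 0 of 18 for G1/S. The medians were then 0.67 and 0.61, where all genes had -0.25. The G2/M shares were 22.2% and 11.1%, against 10.2% and 15.1% of all genes there. On the log2(CPM + 1) scale, the list mean of G2/M genes was 9.09 in NPC1_S26 and 5.65 in NPC1_S33. It was 0.96 to 2.53 in the other 8 Eomes-positive cells and 0.71 to 2.10 in the Eomes-negative cells. Apart from NPC1_S26 and NPC1_S33 the ranges overlapped.

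Ube2c, a ubiquitin-conjugating enzyme of mitotic exit, was less tied to the 2 cells. It ran from 0.958 through 251 to 838 CPM in the Eomes-positive cells and from 0.0784 through 1.56 to 4.97 CPM in the Eomes-negative cells. It reached 10 CPM in 7 of 10 cells (70%, interval 34.8 to 93.3%) and 0 of 6 cells (interval 0 to 45.9%), at a difference of 5.11. Hmgb2, a chromatin protein of dividing cells, and Cenpa, the centromeric histone, had differences of 4.18 and 3.97. Top2a, by contrast, had a difference of 2.06 that was -0.039 without NPC1_S26, NPC1_S33 and NPC1_S39 and thus reversed.

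Outside the lists, the rule named 15 genes in each direction. Those higher in the Eomes-positive cells had differences of 5.04 to 5.98 and reached 10 CPM in 6 to 10 of 10 and 0 to 3 of 6 cells. Lhx9, a LIM homeobox gene, was 1 of them: it ran from 0.256 through 536 to 1994 CPM in the Eomes-positive cells and from 0 through 0.0767 to 81.4 CPM in the Eomes-negative cells, at a difference of 5.56. Its highest cell was NPC2_S13, which also had the most Eomes, and NPC1_S27 was the 1 Eomes-positive cell without it. Hmgb3, a chromatin protein of progenitors, ran from 73.3 through 898 to 2017 CPM and from 0 through 23.5 to 464 CPM, at 5.11. Others serve general functions: Pdhb (5.98) encodes a subunit of pyruvate dehydrogenase, Sumo3 (5.85) a ubiquitin-like modifier, and U2surp (5.34), Sf3b3 (5.32) and Snrpc (5.14) encode splicing proteins. Pcm1 (5.21), a centriolar satellite protein, and Ift27 (5.23), of intraflagellar transport, were at 10 CPM or more in 8 and 6 of 10 and 1 and 0 of 6 cells.

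Those higher in the Eomes-negative cells had differences of -6.10 to -4.89. Ctxn1, a small membrane protein of cortical neurons, ran from 0 through 0.591 to 87.8 CPM in the Eomes-positive cells and from 132 through 341 to 736 CPM in the Eomes-negative cells, so that the groups did not overlap. Ctnnd2, a delta-catenin of neuronal junctions, reached 10 CPM in 2 of 10 and 6 of 6 cells, at -5.86, and Sez6, a membrane protein of neurons, in 2 of 10 and 5 of 6, at -5.05. Cxcr7, a chemokine receptor (also called Ackr3), had no read in any Eomes-positive cell and reached 10 CPM in 4 of 6 Eomes-negative cells, with a maximum of 1508 CPM. Rabif had no read in any Eomes-positive cell either and reached 10 CPM in 5 of 6 Eomes-negative cells. In 0 of 10 cells, the exact interval allows a share of up to 30.8%.

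The Eomes-positive cells were not uniform among themselves. NPC1_S5, NPC1_S8 and NPC3_S38 had synaptic list means of 4.09, 4.33 and 4.03, next to the 4.25 to 5.03 of the Eomes-negative cells, and axonal list means of 4.84, 3.92 and 3.39, where the Eomes-negative cells had 3.67 to 5.05. These 3 cells supplied every Eomes-positive value of Myt1l at 10 CPM or more. NPC2_S13, NPC1_S26, NPC1_S27 and NPC1_S33 lay at the other end, with synaptic list means of at most 1.26. NPC1_S2, with the least Eomes of its group, had list means of 5.06 for intermediate progenitor genes and 3.79 for synaptic genes, so that both programmes were present in the same cell. The order of Eomes within the group and these list means were not tested against each other.

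The Eomes-negative cells were closer to each other on synaptic genes (SD of list means 0.32, against 1.44) and on axonal genes (0.54, against 1.38). On intermediate progenitor genes their list means lay further apart, from 0.32 in NPC3_S26 to 3.35 in NPC2_S17. The SD of these means was 1.06, against 1.24 in the Eomes-positive cells. NPC2_S17 held Rcor2 at 220 CPM and the highest Neurod2, 1382 CPM, and NPC1_S12 held Nhlh1 at 332 and Neurod1 at 1507 CPM, so that part of the neurogenic list was present without Eomes.

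**Figure D4:**
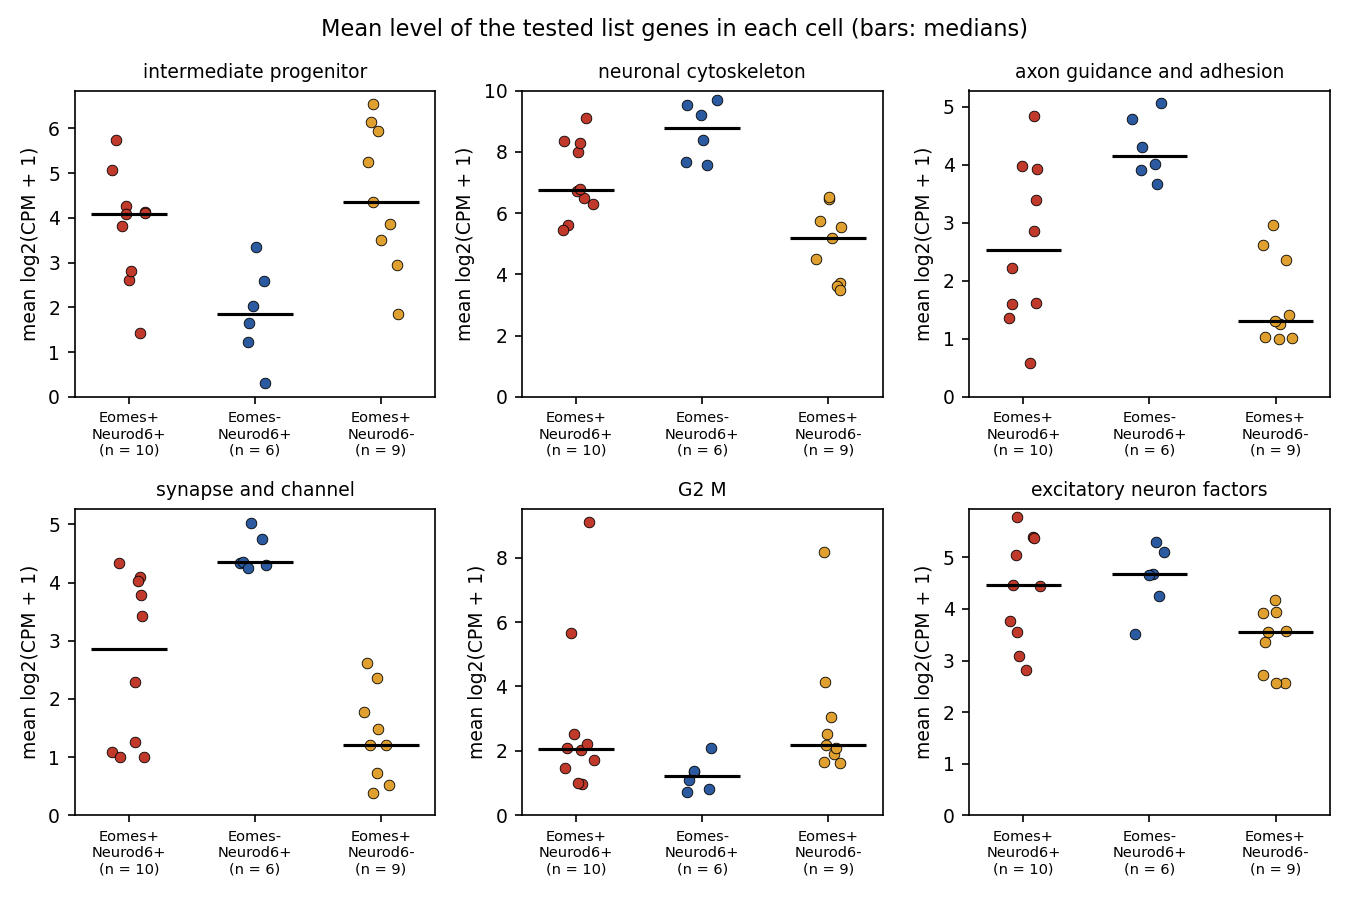
Mean log2(CPM + 1) over the examined genes of 6 lists (panels, y axes from 0) in each cell of the Eomes-positive and Eomes-negative Neurod6 cells and of the 9 cells with Eomes but no Neurod6; points are cells and bars medians. On synaptic genes the medians are 2.86, 4.34 and 1.21, and the Eomes-positive Neurod6 cells run from 1.0 to 4.33.

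A further 9 cells of the series had Eomes at 10 CPM or more without Neurod6, and lay 3, 2 and 4 in sets 1, 2 and 3. They were set beside the Eomes-positive members to show where the latter differ, without a test. Neurog2, Btg2 and Hes6 reached 10 CPM in 7 of 9 of these cells each, against 6, 3 and 3 of the 10 Eomes-positive Neurod6 cells. Neurod1 went the other way, in 3 of 9 against 9 of 10 cells, and so did Dcx (3 of 9 against 9 of 10), Stmn2 (3 of 9 against 8 of 10) and Tbr1 (1 of 9 against 8 of 10). Syt4 reached 10 CPM in 0 of 9. The median list mean of cytoskeletal genes was 5.18 in these 9 cells, 6.76 in the Eomes-positive and 8.80 in the Eomes-negative Neurod6 cells, and that of axonal genes 1.31, 2.53 and 4.15. For intermediate progenitor genes the medians were 4.34, 4.09 and 1.85. On these lists the cells with both genes lay between the other groups, by medians and with overlap. Lhx9 broke this order, being at 10 CPM or more in 4 of 9, 9 of 10 and 2 of 6 cells, as did St18 in 6 of 9, 8 of 10 and 1 of 6.

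Markers of other cells moved with the groups in part. Reln reached 10 CPM in 3 of 6 Eomes-negative cells (7134 CPM in NPC1_S39, 136 in NPC3_S26 and 108 in NPC1_S17) and in 0 of 10 Eomes-positive cells. The summed 5 Cajal-Retzius markers ran up to 7205 CPM in the Eomes-negative and 3.70 CPM in the Eomes-positive cells, with medians of 76.0 and 0.0431 CPM. Lhx5 was below 10 CPM in all 16. The summed 3 red blood cell markers Hbb-y, Hba-x and Alas2 had medians of 11.3 CPM in the Eomes-positive and 231 CPM in the Eomes-negative cells and maxima of 661 and 1087 CPM. Hbb-y, an embryonic globin, had a difference of -2.08 and of -0.73 within set 1, and was short of the fold when any of several single cells was left out. Whether such RNA takes part in the differences above was not tested.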

How the data were processed

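The authors deposited raw counts, as whole numbers of reads, for 11971 genes in 65 cells. Per the submitters' processing notes, the tools were TopHat2 and HTSeq and the build mm9, without versions. Counts were divided by each cell's total to give CPM and logged with a pseudocount of 1 (Python 3.11.15, pandas 2.3.3, numpy 2.4.6). No test was run, since 1 sample stands behind each group. Scaling alternatives used edgeR 4.0.16 (TMM) and DESeq2 1.42.0 (poscounts size factors). Shares of cells have exact Clopper-Pearson intervals (scipy 1.17.1). The comparison was tested on simulated data. Members, 21 gene lists with 436 entries (402 measured) and rules were chosen with earlier results of these data known. Named genes were Eomes and Neurod6, a fixed set, up to 5 genes per main list and 3 per other list with the largest difference, and up to 15 genes per direction outside the lists that kept their sign in set 1 and reached 10 CPM in at least 3 cells of the higher group. Promoters came from RefSeq (GRCm38.p6) by symbol and share no coordinates with the mm9 counts. Cells were sorted one by one, but doublets were not searched for, and whether any library holds more than 1 cell was not tested. Some genes that the rule takes are not reported here.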

Additional observations from a re-analysis of the deposited data

How the results depend on the processing

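With a pseudocount of 10, 148 and 194 genes were past the fold, higher in the Eomes-positive and in the Eomes-negative cells, and within set 1 alone 1451 genes were past it and higher in the Eomes-positive cells. Without 1 cell at a time the counts ran from 664 to 874 and from 711 to 964. Genes with every Eomes-positive cell above every Eomes-negative cell numbered 39 of 6337 examined within set 1. They numbered 1 of 6769 without NPC1_S26 and NPC1_S33 and 5 of 6739 also without NPC1_S39. Without 1 cell they numbered 0 to 4, of 6819 to 6999 genes. In the other direction they numbered 46, 4 and 7 of the same totals, with 4 of 6985 under DESeq2 size factors and 2 to 6 without 1 cell. Fewer cells can overlap less, and set 1 holds only 8 Eomes-positive and 3 Eomes-negative cells. These counts can therefore not be compared between settings. As differences of group medians, the list medians were -0.10 for synaptic, -0.41 for axonal, -0.61 for cytoskeletal and 0 for migration genes. They were 0.77 for intermediate progenitor, 0.08 for G2/M and 0.03 for G1/S genes. All of these lay closer to 0 than in the main comparison. The difference of Cdk5r1 reversed to 0.19 with group medians, and that of Top2a to -0.039 without NPC1_S26, NPC1_S33 and NPC1_S39. The cause of the other changes was not tested. The last setting and the fit with the title set as a term were chosen after seeing the data. Calls higher in the Eomes-positive cells were 47.6% of all calls, 40.2% under DESeq2 size factors, 57.8% within set 1 and 40.4% without the 3 cells. Of 91 named genes past the fold, 58 were past it in all 29 alternatives and 70 without any 1 cell. Most of these genes were named for large differences, and the alternatives include thresholds that chose the same cells. The numbers therefore do not stand for all genes. Of all 1465 calls, 23.3% were kept with a pseudocount of 10, 67.2% with group medians and 76.2% within set 1. Thinning every cell to 1390849 reads gave 699 and 772 genes. No paired analysis was possible because all cells belong to one labelled group.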

Other observations

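Genes of general function gave mixed values. Of 16 ribosomal protein genes examined, 0 were past the fold in either direction, and the median difference was 0.07. Rpl3, at 1.87, and Rplp0, at 1.19, had the highest differences of that list, and the list means of 9.11 to 10.8 in the Eomes-positive and 8.97 to 10.5 in the Eomes-negative cells overlapped. Among 12 housekeeping genes, Polr2a, the large subunit of RNA polymerase II, was past the fold and higher in the Eomes-positive cells (4.06, at 10 CPM or more in 8 of 10 and 2 of 6 cells), and Tbp (-3.42) and Hprt (-3.29) were past it in the other direction. Single genes thus passed the fold in a list chosen for stable expression.

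Jun, an immediate early gene that dissociation can induce, was at 10 CPM or more in 0 of 10 Eomes-positive and 2 of 6 Eomes-negative cells, with a maximum of 290 CPM and a difference of -2.63 that was short of the fold without NPC1_S12 or NPC1_S39. Dnajb1, a heat shock gene, was at 1.53 and Dusp1 at -0.43. Meis2, a homeobox gene of ventral and of other forebrain cells and the only examined gene of the ventral list, ran from 0 through 21.5 to 787 CPM and from 0 through 0.100 to 123 CPM, at a difference of 3.05, while the Dlx genes measured stayed below 10 CPM in all 16 cells.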
